A study of Macaca mulatta with 10 samples.

Results

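The trans-synaptic bridge was followed through 7 genes of the dorsal thalamus of the adult rhesus monkey: the cerebellin CBLN1, the neuronal pentraxins NPTX1 and NPTX2 with the pentraxin receptor NPTXR, the neurexins NRXN2 and NRXN3, and the neuroligin NLGN1. They were chosen by name, with earlier results of these data known. Every probe set annotated to exactly 1 of these symbols was taken, which gave 11 of the 19065 probe sets tested (11963 genes). NRXN3 had 3 of these probe sets, NPTXR and NRXN2 had 2 each, and the other 4 genes had 1 each. Total RNA came from tissue punches of 5 nuclei of untreated monkeys, labelled Centre Median, Pulvinar, Anterior Thalamus, Ventral Thalamus and Medial Thalamus. Each nucleus had 2 arrays, numbered replicate 1 and replicate 2 in the labels, so 10 Affymetrix U133A arrays entered the comparison, whose stated question is which genes set each nucleus apart. No sex, age in years, animal or pooling was named for any array. The U133A array carries probes designed on human transcripts, so a level here is the signal of human probes with monkey RNA and cannot be compared between genes.

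Trans-synaptic organisers are proteins that hold the sending and the receiving side of a synapse in register. Neurexins sit in the presynaptic membrane and bind neuroligins, such as NLGN1 of excitatory synapses, across the cleft. Cerebellins are secreted proteins of the C1q family that join presynaptic neurexins to GluD receptors of the delta family on the postsynaptic side, and are best known from the cerebellum. Neuronal pentraxins are secreted or, in the case of NPTXR, membrane-anchored proteins that assemble with each other and cluster AMPA-type glutamate receptors.

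In short, 3 of the 7 genes differed between nuclei once the replicate number was taken into account. CBLN1 was 3.52-fold higher in Centre Median than in the mean of the other 4 nuclei, NPTX2 was 2.11-fold lower there, and 1 of the 2 NPTXR probe sets was 3.41-fold higher in Medial Thalamus. All 3 NRXN3 probe sets read highest in Pulvinar on both arrays, a difference that did not pass the test with the replicate number held constant. NPTX1, NRXN2 and NLGN1 passed no test of nuclei in the fits to all 10 arrays.

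The 10 arrays divided first by replicate number and only then by nucleus. Arrays of different nuclei with the same number correlated at 0.981 to 0.992 over all probe sets, whereas the 2 arrays of a nucleus correlated at 0.943 to 0.962, and the leading principal component, with 68.6% of the variance, separated the numbers. The lowest intensity on an array was 12.0 to 12.3 for replicate 1 and 9.49 to 9.55 for replicate 2. What the number stands for (animal, session or processing run) is not given in the sources used here. Within replicate 1 the arrays also differed in XIST, the RNA of the inactive X chromosome: Anterior, Medial and Ventral Thalamus read 6.70 to 7.22 (log2), Centre Median and Pulvinar 8.96 to 9.60, and the 5 replicate 2 arrays 9.86 to 10.3. The Y-linked RPS4Y1 ran the other way, at 8.16 to 8.94, 7.22 to 7.65 and 6.96 to 7.23. The Medial Thalamus replicate 2 array stood apart in some markers of neighbouring tissue. TTR, the main product of the choroid plexus, was 12.2 there against 7.17 to 8.41 on the other 9 arrays. POU4F1, a transcription factor of habenular neurons, was 7.36 against 5.56 to 6.27. Of the other choroid plexus markers measured, AQP1 was slightly above the other arrays (8.09 against 7.29 to 7.88). KCNJ13 and FOLR1 lay within the range of the other 9 arrays, as did the other habenula markers measured, CHRNB4, CHRNA3 and TAC1. Among the 5 replicate 2 arrays alone, however, this array was highest for KCNJ13 (6.08 against 5.13 to 5.51) and CHRNB4 (4.33 against 4.16 to 4.30). It was also highest there for CHRNA3 (8.31 against 7.48 to 8.08) and TAC1 (5.76 against 4.25 to 5.22), but not for FOLR1. The same array also lay above the other 9 for GFAP (12.4 against 9.99 to 11.7) and GJA1, markers of astrocytes. So it did for CD74 and C1QA of microglia and CDH5 of endothelial cells. The remaining markers of these cells lay within the range of the other 9. They were AQP4, SLC1A2, SLC1A3 and ALDH1L1 (astrocytes), C1QB, CSF1R, AIF1 and TYROBP (microglia), and CLDN5, VWF, PECAM1 and FLT1 (endothelial cells). For the neuronal markers GAD2 and STMN2 the array lay below the other 9, and for GAD1, SNAP25, SYT1 and ENO2 within their range. Among the replicate 2 arrays alone it was also lowest for SLC1A2, GAD1, SNAP25 and SYT1, and highest for VWF. The 3 thalamic relay markers read 11.8 to 13.0 (TCF7L2), 10.3 to 11.5 (SLC17A6) and 7.69 to 8.47 (SLC17A7) over the 10 arrays.

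Because of this, 2 versions of each test were run, of which the second held the replicate number constant as a blocking factor (the block). Values are log2 of the normalised intensity plus 1, and a probe set was called when its adjusted p in limma (Benjamini-Hochberg over all 19065 probe sets) was under 0.05. In the F test across the 5 nuclei without the block, 0 of the 11 probe sets and 0 of all 19065 were called (percentage called 0), with 118 of all and 5 of the 11 under an unadjusted p of 0.05. With the block the F test called 41 probe sets in all, 0.215% of those tested, and 3 of the 11: CBLN1 (adjusted p = 0.00804, rank 9 of all), NPTX2 (adjusted p = 0.0106, rank 12) and NPTXR 213040_s_at (adjusted p = 0.0466, rank 39). The median residual SD was 0.211 before the block entered and 0.124 after. The nucleus means of CBLN1 spanned 2.21 log2 units, those of NPTXR 213040_s_at 2.17 and those of NPTX2 1.32, against a median span of 0.225 over all probe sets.

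**Figure D1:**
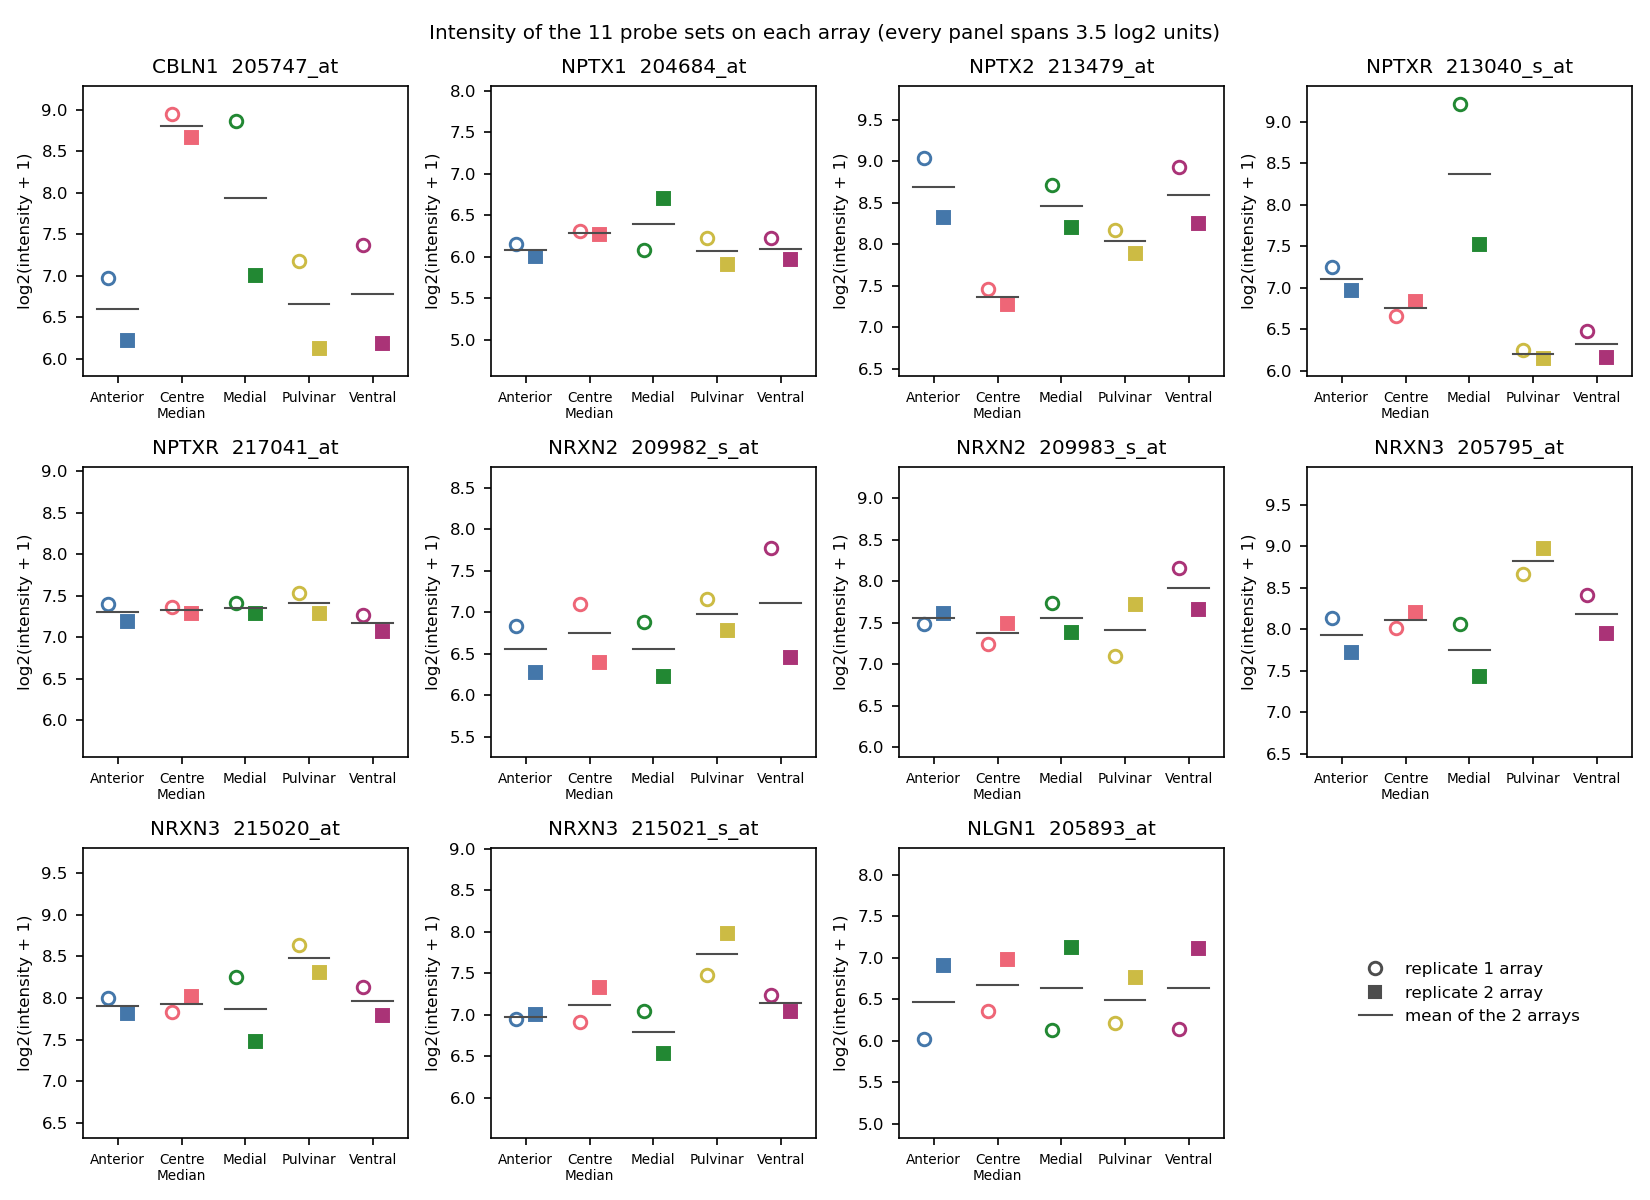
Level of each of the 11 probe sets, as log2 of the intensity plus 1 (vertical axis, 3.5 log2 units in every panel), in the 5 nuclei (horizontal axis). Open circles are replicate 1 arrays, filled squares replicate 2 arrays and the short lines their means. CBLN1 is highest on both Centre Median arrays and Medial Thalamus replicate 1, NPTX2 is lowest on both Centre Median arrays, and NLGN1 is higher on every replicate 2 array than on every replicate 1 array.

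CBLN1 encodes cerebellin 1, the secreted ligand that links neurexins to postsynaptic receptors, and it was the gene most raised in Centre Median among those followed here. Its levels were 8.94 and 8.67 in Centre Median (replicate 1, then replicate 2), 8.86 and 7.01 in Medial Thalamus, and 7.37 and 6.19 in Ventral Thalamus. Pulvinar read 7.18 and 6.13, and Anterior Thalamus 6.97 and 6.22. On the intensity scale, Centre Median stood at 491 and 407 and Anterior Thalamus at 124 and 73.6. Both Centre Median arrays were thus high, and they overlapped with the other nuclei at a single point, Medial Thalamus replicate 1.

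The Centre Median mean of 8.81 ± 0.19 (SD, n = 2) exceeded the mean of the other 4 nuclei, 6.99, by 1.82 log2 units (SE 0.206, 95% interval 1.37 to 2.26, adjusted p = 0.00300 in limma with the block). In that comparison 18 probe sets were called, 0.0944% of those tested, and 2 of them were among the 11, CBLN1 and NPTX2. Without the block the difference was the same, its SE was 0.519 and its adjusted p 1.00, and 0.0105% of all probe sets were called. Within the replicate 1 arrays alone the difference was 1.35, and within the replicate 2 arrays 2.28. The call was lost when Centre Median replicate 2 was left out (1.35, adjusted p = 0.0910).

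In order of their means the nuclei ran Centre Median, Medial Thalamus, Ventral Thalamus, Pulvinar and Anterior Thalamus for CBLN1. Pair by pair, Centre Median exceeded Anterior Thalamus by 2.21 (adjusted p = 0.00629 in limma with the block, where 0.0525% of probe sets were called), Pulvinar by 2.15 (adjusted p = 0.00849, 0.0367% called) and Ventral Thalamus by 2.03 (adjusted p = 0.00611, 0.236% called). The difference between Centre Median and its neighbour Medial Thalamus, 0.88, did not pass (adjusted p = 0.367), nor did that between Medial and Ventral Thalamus, 1.15 (adjusted p = 0.0646). The last 3 nuclei lay within 0.12 and 0.06 of their neighbours.

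Medial Thalamus itself gave an uneven reading for CBLN1. Against the other 4 nuclei it was 0.72 higher (SE 0.206, 95% interval 0.27 to 1.17, adjusted p = 0.246), made up of 1.24 within the replicate 1 arrays and 0.20 within the replicate 2 arrays. Without Medial Thalamus replicate 2, the array with the TTR and POU4F1 signal, the difference was 1.24 and passed (adjusted p = 0.0234, 0.661% of all probe sets called), and CBLN1 was then also called lower in Ventral Thalamus (a difference of -0.85, adjusted p = 0.0266, 0.603% called). Centre Median was 1.69 higher in that fit (adjusted p = 0.000262), which assumes that the lone Medial Thalamus array varies like the others. The part of that signal in the low value on that array was not tested.

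NPTX2, neuronal pentraxin 2 or Narp, is an activity-regulated pentraxin, and it read lowest in Centre Median. Its levels were 7.46 and 7.28 in Centre Median, 8.18 and 7.90 in Pulvinar, and 8.71 and 8.21 in Medial Thalamus. Ventral Thalamus read 8.93 and 8.26, and Anterior Thalamus 9.04 and 8.33. The 2 Centre Median arrays lay below all 8 others, as was the case for 0.698% of all probe sets.

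The Centre Median mean of 7.37 ± 0.13 (SD, n = 2) was 1.08 log2 units below the mean of the other 4 nuclei, 8.44 (a difference of -1.08, SE 0.120, 95% interval -1.34 to -0.82, adjusted p = 0.00300 in limma with the block). Without the block the SE was 0.255 and the adjusted p 1.00. The differences within the replicate 1 and the replicate 2 arrays were -1.25 and -0.90, and the nuclei fell in the same order in both: Anterior, Ventral and Medial Thalamus, Pulvinar, then Centre Median. Over the 5 nuclei the levels of the 2 sets of arrays correlated at 0.988, the highest of the 11 probe sets, as a description of 5 points. Without Centre Median replicate 1 the difference was -0.90 and the call was lost (adjusted p = 0.374).

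Between pairs of nuclei, NPTX2 was lower in Centre Median than in Anterior Thalamus by 1.32 (adjusted p = 0.00596 in limma with the block), than in Ventral Thalamus by a Centre Median minus Ventral Thalamus difference of -1.23 (adjusted p = 0.00424), and than in Medial Thalamus by one of -1.09 (adjusted p = 0.0247, with 0.0420% of all probe sets called). Its nearest neighbour in the order, Pulvinar, was 0.67 above Centre Median, which did not pass (adjusted p = 0.293). Steps further up the order were 0.42 from Pulvinar to Medial Thalamus, 0.14 from there to Ventral Thalamus and 0.09 to Anterior Thalamus, none past the threshold. In Anterior Thalamus, where no probe set at all was called against the other 4 (percentage called 0, with 1073 under an unadjusted p of 0.05), NPTX2 was 0.57 higher (95% interval 0.31 to 0.83, adjusted p = 0.843).

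CBLN1 and NPTX2, the ligands of the neurexin-GluD and the AMPA receptor bridges, thus lay at opposite ends in Centre Median. Their levels correlated at -0.66 over the 10 arrays after each replicate set was centred, a description in which the arrays share nuclei and sets. Both were lower on the replicate 2 arrays, CBLN1 by a difference of -1.02 (adjusted p = 0.000288) and NPTX2 by one of -0.47 (adjusted p = 0.00136, limma), in a comparison of the numbers that called 54.0% of all probe sets.

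**Figure D2:**
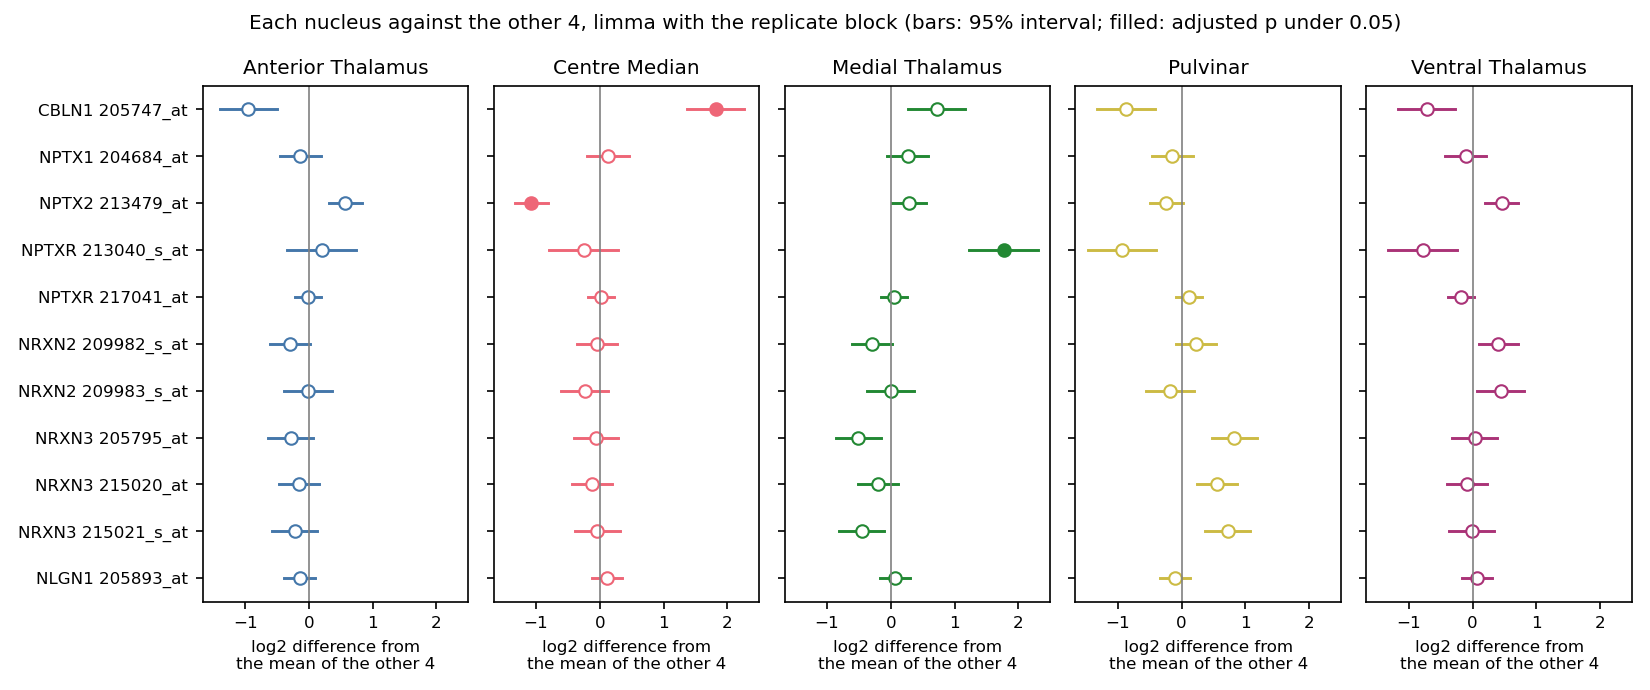
Difference of each nucleus from the mean of the other 4 (horizontal axis, log2 units, 1 panel per nucleus) for the 11 probe sets (vertical axis), from limma with the replicate block. Bars are 95% intervals and filled points have an adjusted p under 0.05: CBLN1 at 1.82 and NPTX2 at -1.08 in Centre Median, and NPTXR 213040_s_at at 1.77 in Medial Thalamus.

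NPTXR, the pentraxin receptor, anchors pentraxin complexes in the membrane, and its 2 probe sets disagreed. On 213040_s_at Medial Thalamus read 9.21 and 7.52, Anterior Thalamus 7.25 and 6.97, and Centre Median 6.66 and 6.84. Ventral Thalamus read 6.48 and 6.17, and Pulvinar 6.25 and 6.15. Both Medial Thalamus arrays lay above all 8 others, as for 0.939% of all probe sets, but replicate 1 was much the higher of the pair, at an intensity of 591 against 183.

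On that probe set the Medial Thalamus mean of 8.37 ± 1.19 (SD, n = 2) exceeded the mean of the other 4 nuclei, 6.60, by 1.77 log2 units (SE 0.248, 95% interval 1.23 to 2.31, adjusted p = 0.0259 in limma with the block). The comparison called 19 probe sets, 0.0997% of those tested, and NPTXR 213040_s_at was the only 1 of the 11. Without the block the adjusted p was 1.00, and the comparison called no probe set (percentage called 0, with 205 under an unadjusted p of 0.05). The difference was 2.55 within the replicate 1 arrays and 0.99 within the replicate 2 arrays. Of the pairs, Medial Thalamus exceeded Pulvinar by 2.17 (adjusted p = 0.0333, 0.0472% of probe sets called) and Ventral Thalamus by 2.04 (adjusted p = 0.0155, 0.708% called), while its difference of 1.26 from its neighbour Anterior Thalamus did not pass (adjusted p = 0.710).

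The second NPTXR probe set, 217041_at, showed no such difference. It read 7.41 and 7.29 in Medial Thalamus and between 7.07 and 7.53 on the other arrays, and Medial Thalamus differed from the rest by 0.05 (95% interval -0.16 to 0.25). The 2 probe sets correlated at 0.16 over the 10 arrays after centring each replicate set. The Medial Thalamus result is therefore that of 1 probe set, and which of the 2 follows the monkey transcript was not tested.

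The F test called NPTXR 213040_s_at in 3 of 5 blocked settings with all arrays and in 2 of 10 with 1 array left out. Its Medial Thalamus call was also the least steady of the 3. It was lost with quantile normalisation (adjusted p = 0.0571), without a variance trend (adjusted p = 0.0641), and with each array's 3-prime minus 5-prime actin signal, a measure of RNA or labelling quality, as a covariate (1.25, adjusted p = 0.0573). Medial Thalamus replicate 1, which carried the highest NPTXR reading, had the lowest actin value of the 10 arrays, -0.09 against up to 1.64. Leaving out Anterior Thalamus replicate 1, Anterior Thalamus replicate 2 or Centre Median replicate 1 also ended the call (adjusted p = 0.0754, 0.0609 and 0.0555). Leaving out Medial Thalamus replicate 2 gave 2.55, and leaving out replicate 1 gave 0.99. Each of these values rests on the lone Medial Thalamus array that was left, whose own spread cannot be measured.

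Some cell type markers also read high or low in Medial Thalamus, on both of its arrays or on 1 alone. Of the 39 markers measured, the F test with the block called only GFAP (adjusted p = 0.0466) and MAG (adjusted p = 0.0413), beside 0.215% of all probe sets. That test compares all the nuclei and singles out none. The astrocyte marker GFAP read 11.2 and 12.4 in Medial Thalamus, 11.3 and 11.7 in Pulvinar, and 9.99 to 11.4 in the other nuclei. MAG, of oligodendrocytes, read 7.76 and 7.79 in Medial Thalamus, 9.13 and 8.88 in Ventral Thalamus, and 7.93 to 8.43 in the other nuclei. GAD1 and GAD2 were not called (adjusted p = 0.0899 and 0.448). The summed intensity of the 2 measured GABA neuron markers of 3, GAD1 and GAD2, was 833 to 1189 in Medial Thalamus and 1365 to 2294 in the other nuclei. That of the 4 choroid plexus markers measured of 5 was 974 on Medial Thalamus replicate 1 and 6298 on replicate 2, against 1062 to 1933 elsewhere. TTR alone made 4656 of the 6298, and the other 3 markers 1642, against 875 to 1644 elsewhere. That of the 4 habenula markers measured of 6 was 351 and 553, against 264 to 460 elsewhere. The sums of all other lists overlapped between Medial Thalamus and the other nuclei. In Medial Thalamus the oligodendrocyte sums were 7236 and 10727, and those of general neurons 14534 and 14682. The lowest of these markers were TAC1, at 4.11 to 6.53, and CHRNB4, at 4.16 to 4.47. As the lowest intensity on any array was 9.49, no probe set read 0. Whether the low readings mark detected RNA was not tested. NPTXR 213040_s_at was highest on the array without the TTR signal. Fewer cells of a type and less RNA per cell cannot be told apart in tissue punches, and the part of cell composition in these differences was not tested.

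NPTX1, the other secreted neuronal pentraxin, was flat apart from 1 array. It read 6.71 on Medial Thalamus replicate 2 and between 5.91 and 6.31 on the other 9 arrays, with 6.08 on Medial Thalamus replicate 1. That high reading came from the array with the TTR and POU4F1 signal. Medial Thalamus differed from the other nuclei by 0.26 (95% interval -0.06 to 0.59, adjusted p = 0.627 in limma with the block), from -0.14 within the replicate 1 arrays and 0.67 within the replicate 2 arrays. Without Medial Thalamus replicate 2 the sign therefore turned.

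NRXN3 encodes a presynaptic neurexin, the receptor for both cerebellins and neuroligins, and all 3 of its probe sets had their highest readings in Pulvinar. On 205795_at Pulvinar read 8.66 and 8.97, Ventral Thalamus 8.41 and 7.95, and Centre Median 8.02 and 8.20. Anterior Thalamus read 8.13 and 7.72 on it, and Medial Thalamus 8.06 and 7.44. On 215020_at Pulvinar read 8.64 and 8.31 and the other arrays 7.48 to 8.25. On 215021_s_at Pulvinar read 7.48 and 7.98 and the others 6.54 to 7.34. The 2 Pulvinar arrays thus lay above the 8 others on each of the 3 probe sets, as for 0.540% of all probe sets, and the 3 share a gene and are no independent replicates.

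The Pulvinar mean on 205795_at, 8.82 ± 0.22 (SD, n = 2), was 0.82 log2 units above the mean of the other 4 nuclei, 7.99 (SE 0.162, 95% interval 0.47 to 1.18). This did not pass the test across all probe sets (adjusted p = 0.455 in limma with the block, rank 10 of 19065), and neither did 215021_s_at (0.72, adjusted p = 0.754) or 215020_at (0.56, adjusted p = 0.900). No probe set at all was called in Pulvinar in that fit (percentage called 0, with 720 under an unadjusted p of 0.05, 5 of them among the 11). Within the replicate 1 arrays the differences were 0.51, 0.44 and 0.59 for 205795_at, 215021_s_at and 215020_at, and within the replicate 2 arrays 1.14, 1.00 and 0.53. The 3 probe sets correlated with each other at 0.86 to 0.98 over the 10 arrays after each replicate set was centred.

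A block of 3 levels, added after the XIST levels had been seen (replicate 2, and replicate 1 divided at the midpoint of the XIST range into 3 and 2 arrays), changed the NRXN3 result. The F test then called 80 probe sets, 0.420% of those tested, and 5 of the 11: CBLN1, NPTX2, NPTXR 213040_s_at and now NRXN3 205795_at (adjusted p = 0.00773) and 215021_s_at (adjusted p = 0.0390). NRXN3 205795_at was 1.10 higher in Pulvinar (adjusted p = 0.0135, rank 1, with 0.0105% of all probe sets called) and lower in Medial Thalamus by a difference of -0.69 (adjusted p = 0.0424, 0.110% called). NPTXR 213040_s_at remained called in Medial Thalamus (1.57, adjusted p = 0.0308), and CBLN1 (2.04) and NPTX2 (-0.93) in Centre Median. With 3 residual degrees of freedom, and with Centre Median and Pulvinar the only nuclei whose replicate 1 arrays form the level of 2, this fit leans on few arrays.

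By order of means NRXN3 205795_at ran Pulvinar, Ventral Thalamus, Centre Median, Anterior Thalamus and Medial Thalamus. With the plain block Pulvinar exceeded Ventral Thalamus by 0.63 (adjusted p = 0.693), and the further steps were 0.07, 0.18 and 0.18, none past the threshold. The largest pairwise difference, Pulvinar over Medial Thalamus, was 1.07 and did not pass (adjusted p = 0.102, limma with the block).

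**Figure D3:**
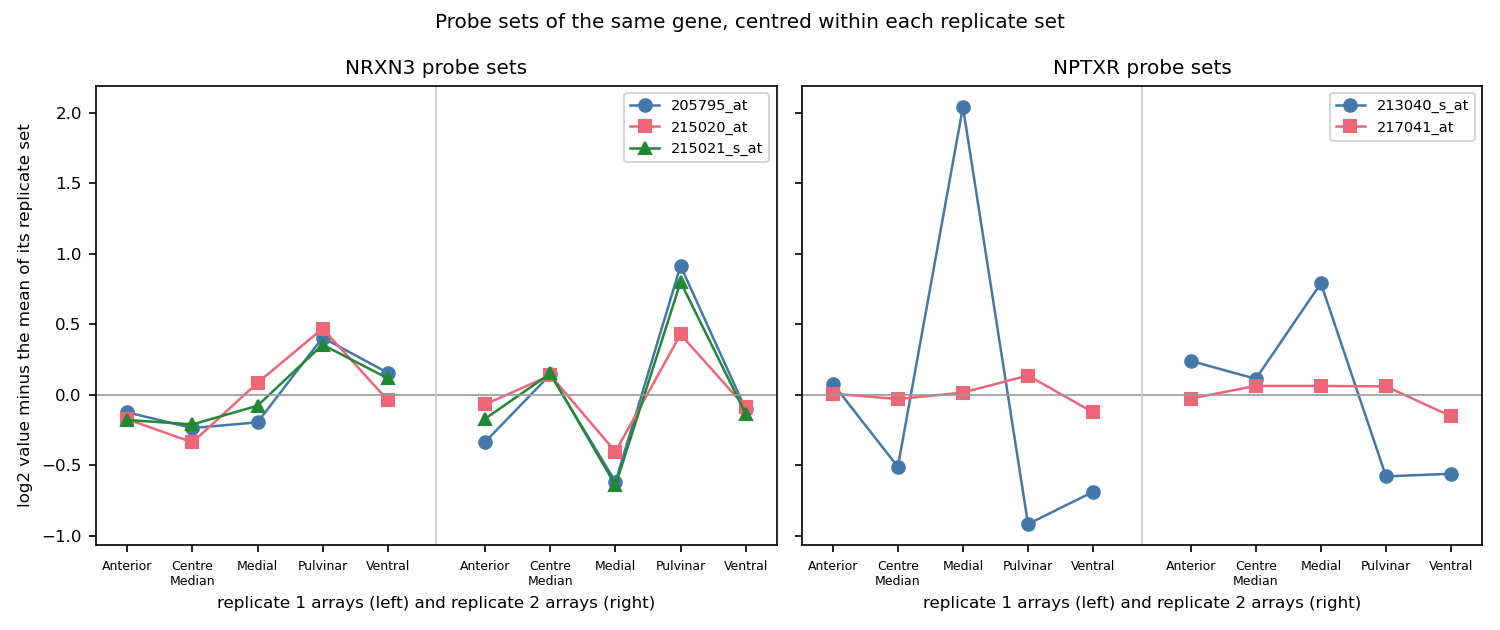
Probe sets of the same gene on each array, as log2 level minus the mean of the 5 arrays with the same replicate number (vertical axis), for replicate 1 (left) and replicate 2 arrays (right). The 3 NRXN3 probe sets run together and peak in Pulvinar in both sets, whereas of the 2 NPTXR probe sets 213040_s_at alone peaks in Medial Thalamus (2.55 and 0.99 above the other nuclei).

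NRXN2, a further presynaptic neurexin, read highest in Ventral Thalamus on replicate 1 alone. On 209982_s_at Ventral Thalamus read 7.77 and 6.46, and the other arrays 6.23 to 7.16. On 209983_s_at it read 8.15 and 7.67, and the other arrays 7.10 to 7.74. The differences from the other 4 nuclei were 0.41 (95% interval 0.09 to 0.72, adjusted p = 0.302) and 0.44 (0.07 to 0.81, adjusted p = 0.368), in a limma comparison with the block that called 64 probe sets, 0.336% of all. Within the replicate 1 arrays they came to 0.77 and 0.76, and within the replicate 2 arrays to 0.04 and 0.11. The 2 probe sets correlated at 0.59 after centring, and 209982_s_at was lower on the replicate 2 arrays by a difference of -0.72 (adjusted p = 0.000268), whereas 209983_s_at differed by 0.03.

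NLGN1, the neuroligin of excitatory synapses, was the most even of the 7 genes across nuclei. Its replicate 1 readings were 6.02 to 6.35 and its replicate 2 readings 6.77 to 7.13, without overlap between the numbers (a difference of 0.81, SE 0.089, adjusted p = 1.63e-05 in limma). The nucleus means spanned 0.20, below the median span of all probe sets. No nucleus differed from the other 4 by more than 0.14, with 95% intervals between -0.38 and 0.35, so a difference of the size seen for CBLN1 lay outside them.

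**Figure D4:**
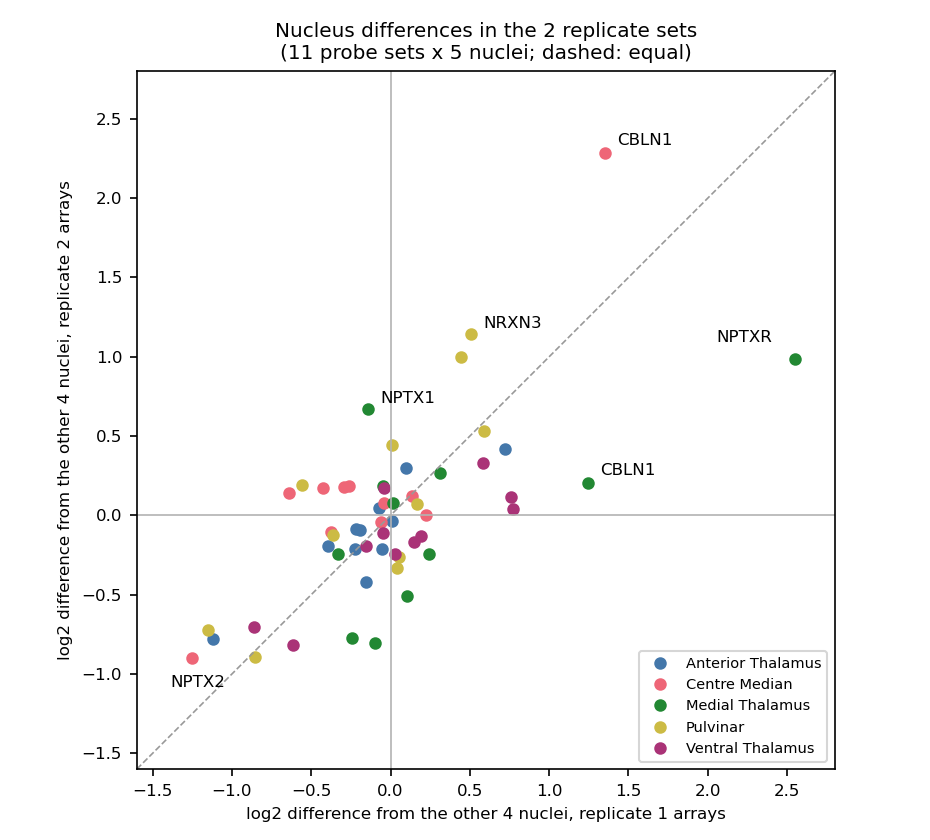
Difference of each nucleus from the other 4 within the replicate 1 arrays (horizontal axis) and within the replicate 2 arrays (vertical axis), in log2 units, for 11 probe sets in 5 nuclei. The dashed line marks equal values. The sign was the same in 36 of the 55 cases. CBLN1 in Centre Median (1.35 and 2.28) and NPTXR 213040_s_at in Medial Thalamus (2.55 and 0.99) lie far from the centre in both sets, while NPTX1 in Medial Thalamus (-0.14 and 0.67) changes sign.

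Agreement between the replicate sets varied from gene to gene. All 5 nucleus differences had the same sign in both sets for CBLN1, NPTX2 and NRXN2 209982_s_at, 4 of 5 for NPTXR 213040_s_at and 3 of 5 for each NRXN3 probe set. For NLGN1 it was 1 of 5, and for NPTX1 and NRXN2 209983_s_at 2 of 5.

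The wider network of these organisers was read from 9 lists with 111 other genes, of which 76 were measured by a probe set of their own. Of the 76, 0 were called in the F test with the block (0.215% of all probe sets were), and 1 was called in a comparison of a nucleus with the rest, in Ventral Thalamus, where 0.336% of all probe sets were called. Counts this small do not set the lists apart from the other probe sets. That gene was CA10, a secreted neurexin ligand of the carbonic anhydrase family, lower in Ventral Thalamus by a difference of -0.86 (SE 0.146, adjusted p = 0.0306 in limma with the block). CA10 read 6.88 and 7.56 in Ventral Thalamus, 6.92 and 8.40 in Centre Median, 7.38 and 8.54 in Anterior Thalamus, 7.66 and 8.82 in Pulvinar, and 8.14 and 8.78 in Medial Thalamus. Ventral Thalamus was thus lowest within each set of arrays, although its replicate 2 reading lay above the replicate 1 readings of Centre Median and Anterior Thalamus, and without the block the adjusted p was 1.00. Unadjusted, 32 of the 76 genes (42.1%) reached a p under 0.05 in at least 1 nucleus in limma with the block, beside 3035 of the 11963 genes each read at their brightest probe set (25.4%); the difference between these shares was not tested.

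None of the AMPA receptor subunits or other neuroligins measured was called. The AMPA receptor subunits, which pentraxins cluster, gave as their farthest nucleus Medial Thalamus for GRIA1 (0.36, adjusted p = 0.256), Centre Median for GRIA2 (0.40, adjusted p = 0.816) and GRIA3 (-0.18, adjusted p = 0.965), and Ventral Thalamus for GRIA4 (-0.23, adjusted p = 0.433, limma with the block). The neuroligins NLGN3 and NLGN4X lay farthest out in Anterior Thalamus (0.17, adjusted p = 0.928) and Centre Median (-0.20, adjusted p = 0.976). GRID1, NLGN2 and CBLN3 had no probe set of their own in the table used and were not analysed here. The nucleus medians over the 76 genes were 0.04 in Anterior Thalamus, -0.02 in Centre Median, -0.03 in Medial Thalamus, 0.05 in Pulvinar and -0.06 in Ventral Thalamus, beside -0.02 to 0.00 over all probe sets.

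List by list, the calls were 0 higher and 0 lower in every nucleus except for CA10 among the 9 other neurexin ligands measured. This covers 1 cerebellin-like ligand (C1QL1), 5 receptors of cerebellins and C1q-like proteins, 9 AMPA receptor partners and pentraxins, and 2 neuroligins (NLGN3 and NLGN4X, with no further neurexin measured). It also covers 15 scaffold proteins, 21 receptor phosphatases, latrophilins and leucine-rich organisers, 7 organisers secreted by astrocytes, and 7 splicing regulators of neurexins.

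The genes whose pattern was most like that of the 3 called genes were ranked by Pearson correlation over the 10 arrays, each replicate set centred, among 11962 other genes. For CBLN1 they were UTP6 (0.938), ZNF195 (0.933), ACHE (0.923), CXXC4 (0.916) and OFD1 (0.894). ACHE encodes acetylcholinesterase, and its means were 7.55 in Centre Median, 7.48 in Medial Thalamus and 6.94 to 7.03 in the other 3. The opposite pattern was closest in GABBR2, a subunit of the GABA-B receptor (-0.965), with means of 11.1 in Centre Median, 11.3 in Medial Thalamus and 11.7 to 11.8 elsewhere, and in TMEM40 (-0.936).

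For NPTX2 the genes most alike were SLC23A2 (0.930), SLC1A6 (0.924), OLFM1 (0.908), NELL2 (0.892) and POLR3D (0.888), and those most opposite TSPYL5 (-0.957) and RBPMS (-0.952). SLC1A6 encodes a neuronal glutamate transporter, and its means were 7.59 in Centre Median and 7.87 to 8.13 in the other nuclei. For NPTXR 213040_s_at they were AP1M2 (0.980), BNIP2 (0.969), ETNK2 (0.961), TRH (0.957) and SYT17 (0.954), with WWP1 (-0.968) and UGP2 (-0.966) opposite. TRH, the precursor of thyrotropin-releasing hormone, had means of 7.76 in Medial Thalamus, 7.44 in Anterior Thalamus, 7.13 in Centre Median and 7.05 in Ventral Thalamus. None of these 21 genes was itself called in the F test with the block, where their adjusted p ran from 0.122 to 0.947 (limma), and the correlations are descriptions over arrays that share nuclei.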

How the data were processed

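Total RNA of 5 thalamic nuclei was hybridised to Affymetrix U133A arrays, 2 per nucleus. The deposited intensity values were made by the authors with RMA, per the submitters' processing notes; its version, and whether all arrays were processed together, are not given in the sources used here. Of 22283 probe sets, 68 controls, 1043 with several genes and 2107 without an entry in the annotation were left out, leaving 19065. Values were taken as log2(value + 1) and fitted per probe set with limma 3.58.1 in R 4.3.3 (lmFit, eBayes with trend), with 1 coefficient per nucleus, moderated F and contrast tests, and Benjamini-Hochberg adjustment over all probe sets. The samples had no count depth; the number of arrays (residual degrees of freedom 5 without and 4 with the block) limits the precision. The scripts were tested on simulated data.

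The replicate numbers were checked before calls were compared: deviations from the nucleus means of same-numbered arrays correlated at 0.758 to 0.831 in all 10 pairs, so the block is given beside each result it changes. Nothing in the labels says that the 2 arrays of a nucleus came from separate animals, so p-values measure only the spread between these arrays. All probe sets of the 7 genes are reported; beside them, the 5 most alike and 2 most opposite genes for each gene called in the F test, the listed genes called in a nucleus comparison, and fixed direct partners, some of which are not reported here. The genes, lists and tests were chosen with earlier results of these data known. The block of 3 levels and the emphasis on leaving out Medial Thalamus replicate 2 were added after seeing the data. Alternatives were another pseudocount (16), quantile normalisation, a filter on low values, 1 probe set per gene, no variance trend, an actin covariate and each array left out. No sequence was used.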

Additional observations from a re-analysis of the deposited data

How the results depend on the processing

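Without the replicate block, 0 of the 11 probe sets were called in the F test or in any nucleus with pseudocount 16, quantile normalisation or no variance trend, 0 of the 9 tested with the filter on low values (not NPTX1 or NLGN1) and 0 of the 7 tested with 1 probe set per gene (NPTXR 213040_s_at was among those left out). With the replicate block, the F test called 3, and 2, 2, 2 and 3 with quantile normalisation, 1 probe set per gene, no variance trend and the actin covariate added; the block of 3 levels, chosen after seeing the data, called 5. Centre Median had 2 calls under each of these 6 settings. Medial Thalamus had 1 with the replicate block and 2 with 3 levels, and Pulvinar 1 with 3 levels. With 1 array left out, with or without the block, the calls ranged from 0 to 3 in the F test, 0 to 2 in Centre Median, 0 to 2 in Medial Thalamus, 0 to 1 in Pulvinar and 0 to 2 in Ventral Thalamus. CBLN1 and NPTX2 in Centre Median were called in 6 of 6 blocked settings with all arrays and in 9 of 10 with an array left out, and NPTXR 213040_s_at in Medial Thalamus in 2 of 5 and 7 of 10. Over all probe sets, the blocked F test called 41, against 19 with quantile normalisation, 18 without a variance trend and 8 to 83 with an array left out; in Centre Median it was 18, against 11 with quantile normalisation, 32 with the actin covariate, 8 with 3 levels and 3 to 32 with an array left out. The filter on low values, without the block, called 1 in the F test and not 0. Of 353 recomputed differences, 5 reversed, in 3 genes. NPTX1 in Medial Thalamus (0.26) ranged from -0.14 to 0.67 with an array left out; it turned without Medial Thalamus replicate 2 (-0.05, or -0.14 with the block) and was -0.14 within the replicate 1 arrays and 0.67 within the replicate 2 arrays. NRXN2 209982_s_at in Ventral Thalamus (0.41) ranged from -0.25 to 1.06, and NLGN1 in Anterior Thalamus (-0.14) from -0.59 to 0.30, without the block, where the nucleus then keeps 1 replicate number against both in the others. These probe sets shifted by -0.72 and 0.81 between replicate numbers, and within the numbers neither turned (0.77 and 0.04; -0.19 and -0.09). With 2 arrays per nucleus, a probe set that passed no test is not shown to be equal between nuclei.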
